A study of Mus musculus with 24 samples.

Results

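Messenger RNA levels of 7 genes that are known from follicular helper T cells were followed across activated OT-1 T cells: Il21, Tox2, Bcl6, Maf, Ascl2, Sema7a and Sh2d1a, 7 of the 48526 genes counted. They were chosen by the measured rise of Il21 and Tox2 with the TLR7 agonist at 24 h and by what is known of follicular helper genes, so that rise, and every other difference that holds the TLR7 24 h libraries, is described here and not tested. OT-1 mice carry a transgenic T cell receptor, on CD8+ T cells, for a peptide of ovalbumin. Splenocytes of these mice were cultured with the peptide at 2 µg/mL, either alone (OVA) or with a further agent added 1 h ahead of it. That agent stimulated TLR2, which senses lipoproteins of bacteria, or TLR7, which senses single-stranded RNA in endosomes. T cells were recovered at 24 h or 72 h by removing the other cells with antibodies and magnetic beads, giving 6 groups of 4 libraries, all from OT-1 mice and all with peptide; no unstimulated group was analysed here. The agonists listed in the labels that act on TLR2 or TLR7 are Pam3CSK4 at 300 ng/mL for TLR2, and gardiquimod at 3 µg/mL and R848 at 10 µg/mL for TLR7; which TLR7 agonist the sequenced cultures received is not stated there. The labels do not give the age of the mice, or whether replicates came from separate mice or cultures, so p-values reflect only how these samples spread, and that spread may be technical.

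Follicular helper T cells (Tfh) are CD4+ T cells that help B cells in germinal centres. The transcription factor BCL6 directs their programme, ASCL2, MAF and TOX2 act in it, and IL-21 is the cytokine they deliver to B cells. SAP, the adaptor encoded by Sh2d1a, passes on signals of SLAM family receptors that hold T and B cells together, and semaphorin 7A, encoded by Sema7a, is a membrane-anchored ligand on activated lymphocytes. CD8+ T cells can also make IL-21, a cytokine that sustains CD8+ T cells in long infections, and the gene names alone do not make the cells described here follicular helper cells. Cd8a lay at 457 to 904 CPM (counts scaled to a common library size) in the 24 libraries and Cd4 at 0 to 2.0 CPM, so the libraries held CD8+ T cells by these markers.

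The 250 bases before a transcript start are given for Il21, Tox2, Sema7a and Bcl6, from RefSeq on GRCm38.p6. For each of these genes, all TLR7 libraries at 24 h lay above all OVA libraries. Of the 7 genes, 5 matched the RefSeq promoter table, with 10 windows in all. Capitals mark matches, on either strand, to GGAAA (the core bound by NFAT factors, which calcium signals of the T cell receptor activate), to TTCNNNGAA (a STAT site) or to CAGCTG (an E-box); matches to different motifs may overlap. The first window is that of Il21, minus strand, chr3:37232637-37232886.
Il21: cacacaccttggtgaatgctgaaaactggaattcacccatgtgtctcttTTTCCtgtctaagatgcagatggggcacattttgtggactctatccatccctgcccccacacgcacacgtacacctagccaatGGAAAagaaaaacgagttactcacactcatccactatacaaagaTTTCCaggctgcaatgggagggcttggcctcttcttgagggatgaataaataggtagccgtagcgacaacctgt
The next is the window of the most upstream Tox2 start, plus strand, chr2:163202877-163203126.
Tox2 window 1: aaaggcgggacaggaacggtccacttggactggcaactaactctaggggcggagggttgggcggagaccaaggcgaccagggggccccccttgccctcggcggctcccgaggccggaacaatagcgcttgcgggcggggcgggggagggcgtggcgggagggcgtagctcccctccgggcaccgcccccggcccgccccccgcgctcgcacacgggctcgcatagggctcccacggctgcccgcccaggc
A Tox2 start inside the gene has the window chr2:163225203-163225452, plus strand.
Tox2 window 4: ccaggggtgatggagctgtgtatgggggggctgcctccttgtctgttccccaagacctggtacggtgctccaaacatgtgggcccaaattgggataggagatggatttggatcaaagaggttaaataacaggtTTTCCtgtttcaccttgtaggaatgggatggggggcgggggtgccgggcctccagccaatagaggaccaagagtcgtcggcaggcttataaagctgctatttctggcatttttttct
The Sema7a window is chr9:57939862-57940111, plus strand.
Sema7a: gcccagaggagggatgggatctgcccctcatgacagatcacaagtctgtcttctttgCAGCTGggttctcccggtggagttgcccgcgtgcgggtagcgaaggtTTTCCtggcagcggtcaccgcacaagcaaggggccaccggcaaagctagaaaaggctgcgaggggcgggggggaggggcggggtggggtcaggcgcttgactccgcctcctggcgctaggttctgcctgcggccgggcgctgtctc
The window of the upstream Bcl6 start is chr16:23988853-23989102, minus strand.
Bcl6 window 1: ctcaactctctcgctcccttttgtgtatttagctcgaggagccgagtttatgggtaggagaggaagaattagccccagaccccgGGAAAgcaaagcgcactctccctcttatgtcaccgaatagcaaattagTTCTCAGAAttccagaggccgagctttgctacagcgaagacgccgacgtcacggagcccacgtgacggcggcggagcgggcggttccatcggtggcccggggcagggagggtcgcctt
The Il21 window held 3 NFAT cores, whose outer bases lay 201, 118 and 74 bases before the start. Sema7a had 1, at 146 bases, beside an E-box at 193 bases, and Tox2 window 4 had 1, at 117 bases, whereas Tox2 window 1 had 0. Bcl6 window 1 held 1 NFAT core and 1 STAT match, and a second Bcl6 window, further into the gene, 3 of each. Of all 32851 such windows in the table, 55.6% held an NFAT core, 7.02% a STAT match and 13% an E-box, so the NFAT core is common. The AP-1 letters TGANTCA, found in 6.75% of all windows, the Maf half-site TGCTGAC, in 3.81%, the kappa-B letters GGGANTTCC, in 1.43%, and the interferon-stimulated response element, in 2.98%, had 0 matches in the windows of the members.

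Library totals were 21.5 to 27.1 M counts (M, 1000000 counts) in 19 libraries and 10.5 to 11.7 M in 5 shallow ones. On the first principal component, which held 60.2% of the variance, the 16 clear libraries split by time, at 85.2 to 99.1 for 24 h and -90.5 to -56.5 for 72 h. The other 8 lay between the times, at -20.5 to -1.2: replicates 1 and 3 of OVA 24 h, replicates 3 and 4 of TLR7 24 h, replicate 4 of OVA 72 h, and all but replicate 2 of TLR2 72 h. For 13 of the 24 libraries the nearest library belonged to another group. The closest of all 276 pairs was TLR7 24 h replicate 4 with TLR2 72 h replicate 4, at a root mean square difference of 0.376 log2 CPM. Also close were OVA 24 h replicate 1 with TLR2 72 h replicate 1 (rank 3, 0.406) and OVA 72 h replicate 1 with TLR7 72 h replicate 3 (rank 7, 0.476).

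Il21 had the widest range of the members, from 0 to 193 CPM. In OVA 24 h it stood at 2.82, 0.339, 6.39 and 0.177 CPM in replicates 1 to 4, in TLR2 24 h at 14.5, 84.4, 25.9 and 39.0 CPM, and in TLR7 24 h at 192, 193, 86.6 and 55.9 CPM. All 8 agonist libraries at 24 h lay above all 4 OVA libraries, and the TLR2 and TLR7 ranges overlapped. The fitted log2 fold change of TLR7 over OVA at 24 h, the difference used to pick the genes, was 5.69 (SE 1.19), and 9.53 without the 8 libraries between the times. At 72 h the levels were 6.05, 0, 0.273 and 0.0797 CPM with OVA, 2.68, 11.0, 26.8 and 56.8 CPM with TLR2, and 10.4, 8.12, 7.83 and 6.46 CPM with TLR7. The TLR7 libraries at 72 h were close together and all below the lowest TLR7 library at 24 h, while 3 of the 4 OVA libraries were near 0.

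**Figure D1:**
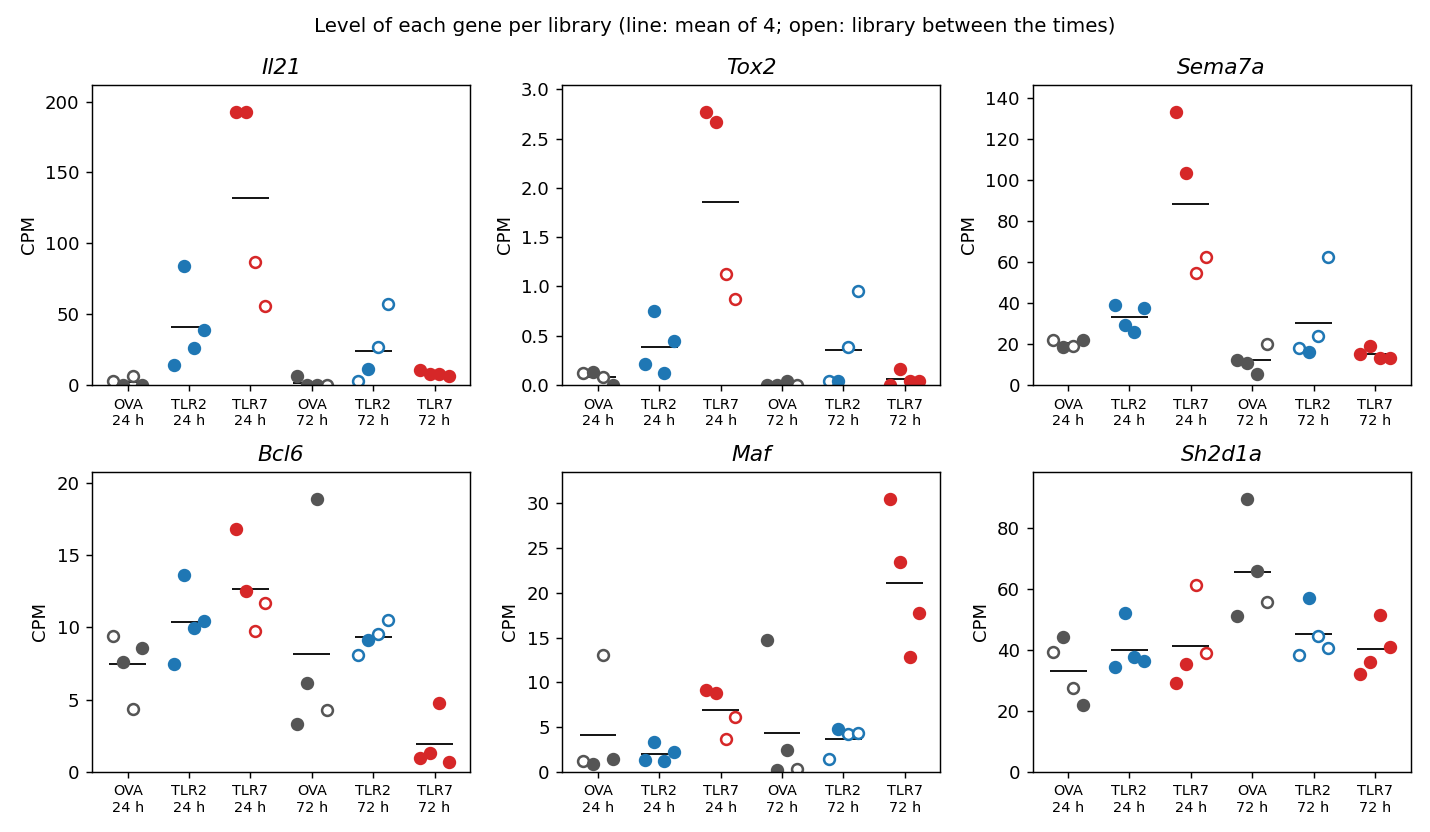
Level of 6 of the genes in CPM (vertical axes, linear, each from 0) in the 4 libraries of each group (points), with the group mean (line); open points are the 8 libraries between the times. Il21, Tox2 and Sema7a peak in TLR7 24 h, Bcl6 is lowest in TLR7 72 h, and Maf is highest there.

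The group means of Il21 ran in the order TLR7 24 h (132 ± 71.1 CPM, SD, n = 4), TLR2 24 h (40.9 ± 30.6), TLR2 72 h (24.3 ± 23.9), TLR7 72 h (8.19 ± 1.61), OVA 24 h (2.43 ± 2.90) and OVA 72 h (1.60 ± 2.97). Each neighbour in this order overlapped the next, except TLR7 72 h and OVA 24 h, whose nearest libraries were at 6.46 and 6.39 CPM. Within the OVA groups, OVA 24 h replicates 1 and 3, both between the times, and OVA 72 h replicate 1 held 2.82, 6.39 and 6.05 CPM, and the other 5 libraries 0 to 0.339 CPM. The plot of Il21 against the first component shows that the 8 middle libraries spread over most of its range.

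**Figure D2:**
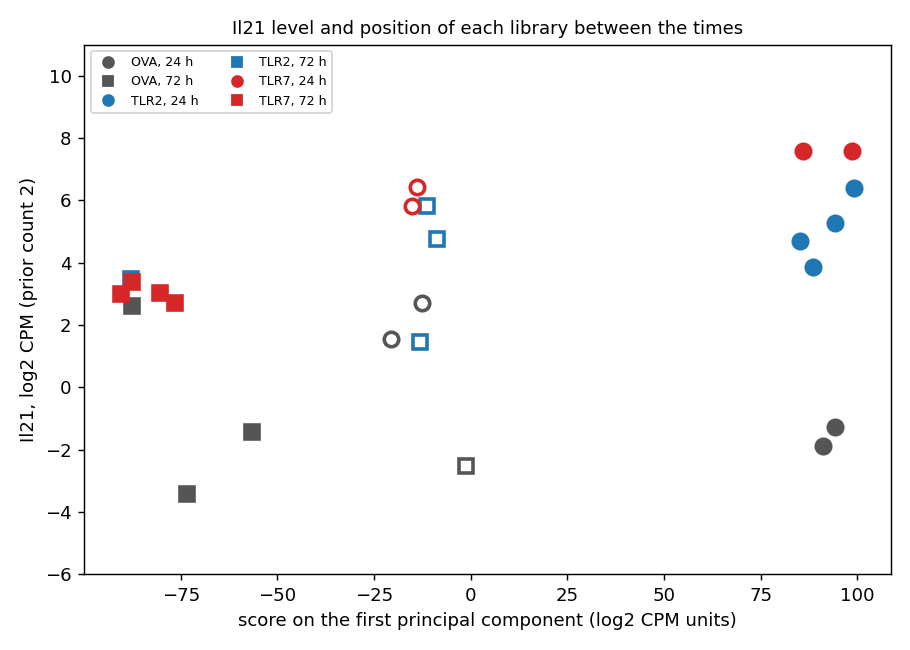
Il21 in log2 CPM (prior count 2, vertical axis) against each library's score on the first principal component (horizontal axis, log2 CPM units), with colour for the agent, circles for 24 h, squares for 72 h and open symbols for the 8 libraries between the times. TLR7 24 h replicate 4 and TLR2 72 h replicate 4 lie side by side, at 55.9 and 56.8 CPM.

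With the TLR2 agonist at 24 h, Il21 was higher than with peptide alone in every library, by 4.00 on the log2 scale (SE 1.11, 95% interval 1.70 to 6.31), one of 2 members with no overlap here (Sema7a is the other) where 6.13% of all genes had none, but it did not pass the test over all genes (adjusted p = 0.176, edgeR's quasi-likelihood test with Benjamini-Hochberg adjustment). DESeq2 called it, at 4.08 (adjusted p = 0.0313). Without the 8 middle libraries the difference was 7.23 (adjusted p = 0.524). In this comparison 0% of the 14560 genes passed with edgeR (2211 at an unadjusted p under 0.05) and 345 with DESeq2; the OVA 24 h libraries also serve in the difference that picked the genes. At 72 h all TLR7 libraries lay above all OVA libraries, the nearest at 6.46 and 6.05 CPM, where 8.7% of all genes had no overlap. The TLR2 difference at 72 h was 3.92 (SE 1.12, adjusted p = 0.236) and the TLR7 difference 2.34 (SE 1.08, adjusted p = 0.245). Both were larger without OVA 72 h replicate 1, at 7.73 (adjusted p = 0.0447) and 6.17 (adjusted p = 0.00689). Leaving out the 8 middle libraries leaves 1 TLR2 library at 72 h, which is then assumed to vary like the other groups, and gave 2.34 (adjusted p = 0.853) and 1.94 (adjusted p = 0.24). TLR7 and TLR2 at 72 h differed by -1.58 (SE 1.00, 95% interval -3.66 to 0.50, adjusted p = 0.322), and by -0.40 (adjusted p = 0.92) without the 8. From 24 to 72 h the change was -0.66 (SE 1.09) with OVA and -0.75 (SE 0.96) with TLR2, neither past the test, and with OVA it was 3.02 without the 8 middle libraries.

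Other T cells can make IL-21 too. The CD4+ and regulatory T cell markers Cd4 and Foxp3 were at or below 2.0 and 1.29 CPM in every library. Zbtb7b, a factor of CD4+ T cells, was at 0.440 to 33.0 CPM. Of the defining markers of NK, NKT and gamma-delta T cells, Trdc was at 21.1 to 83.5 CPM. Ncr1, Klrb1c and Zbtb16 were at or below 3.76 CPM. The summed level of 11 markers of CD4+ and regulatory T cells was 104 to 356 CPM in OVA 24 h, 159 to 175 CPM in TLR2 24 h and 121 to 394 CPM in TLR7 24 h, so these ranges overlapped. At 72 h it was 311 to 568 CPM over the 3 groups. The sum of 10 markers of NKT, gamma-delta T and NK cells was 53.6 to 71.2 CPM in OVA 24 h. It was 47.4 to 58.1 CPM in TLR2 24 h, 43.1 to 51.5 CPM in TLR7 24 h and 49.9 to 103 CPM over the 3 groups at 72 h. The part of any of these cells in the Il21 levels was not tested. In bulk samples, fewer cells of a type and less RNA per cell cannot be told apart.

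Il21 lies on the minus strand of chromosome 3, from 37222759 to 37232636 (GRCm38, GENCODE M21), opposite the antisense gene Gm12534. The sources used here give no strand setting for the counting, so reads of the pair cannot be told apart with certainty. Gm12534 was counted at 9.88, 8.71, 4.09 and 3.89 CPM in TLR7 24 h, at 1.05 to 5.21 CPM in TLR2 24 h and at 0 to 1.37 CPM in OVA 24 h. Its 2 highest libraries were those of Il21 as well, at a level far below it. The other members lie elsewhere in the genome: Tox2 on the plus strand of chromosome 2 (163203125 to 163324170), Bcl6 on the minus strand of chromosome 16 (23965052 to 23988852) and Maf on the minus strand of chromosome 8 (115682942 to 115707794). Ascl2 is on the minus strand of chromosome 7 (142966829 to 142969264), Sema7a on the plus strand of chromosome 9 (57940112 to 57962865) and Sh2d1a on the plus strand of chromosome X (42502453 to 42529330).

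Tox2, an HMG-box transcription factor, was scarce throughout. It was counted at 0.118, 0.136, 0.0825 and 0 CPM in OVA 24 h, at 0.209, 0.748, 0.122 and 0.447 CPM in TLR2 24 h and at 2.77, 2.67, 1.12 and 0.876 CPM in TLR7 24 h. The TLR7 libraries were above all others at 24 h, with 140 counts in all against 8 with OVA. At 72 h Tox2 had 1 count in the 4 OVA libraries together, 4 in the TLR7 libraries and 37 in the TLR2 libraries. Of those 37 counts, 26 came from replicate 4 and 9 from replicate 3, both between the times, and replicates 1 and 2 had 1 each. The TLR2 to OVA ratio at 72 h was 34.6 (exact 95% interval 5.84 to 1403, for counting error only). Over the replicates the fitted difference of 4.47 on the log2 scale did not pass edgeR's test (adjusted p = 0.199), though DESeq2 gave an adjusted p of 0.049. Without the 8 middle libraries it was 1.12. In a fit on the TLR2 and OVA groups at 72 h alone, the filter on low counts dropped Tox2. In the main fit Tox2 passed that filter only through the TLR7 24 h libraries, which picked it, so nothing is read from these p-values. Tox2 in TLR7 72 h, at 0 to 0.165 CPM, was near the floor of 3 counts, which is 0.110 CPM in the deepest library and 0.286 CPM in the shallowest, so no difference from OVA was detectable at this depth.

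Sema7a followed the same order of groups at 24 h as Il21 and Tox2. It stood at 21.7, 18.4, 19.2 and 22.1 CPM in OVA 24 h, at 39.1, 29.2, 25.9 and 37.6 CPM in TLR2 24 h and at 133, 103, 54.5 and 62.6 CPM in TLR7 24 h. None of these 3 ranges overlapped. The TLR7 to OVA difference, part of the contrast that picked the genes, was 2.12 on the log2 scale (SE 0.39), and 2.59 without the 8 middle libraries. At 72 h it was at 12.2, 10.6, 5.42 and 19.9 CPM with OVA, 17.9, 16.3, 24.0 and 62.6 CPM with TLR2 and 15.0, 18.9, 13.0 and 13.3 CPM with TLR7, and the ranges overlapped. The TLR2 difference was 0.69 at 24 h (SE 0.38, adjusted p = 0.381) and 1.33 at 72 h (SE 0.39, adjusted p = 0.236; 0.0335 without OVA 72 h replicate 4). With OVA, Sema7a was lower at 72 h than at 24 h by 0.76 (SE 0.38, adjusted p = 0.142), a difference that passed without the 8 middle libraries (-1.08, adjusted p = 0.00891) and without OVA 72 h replicate 4 (-1.13, adjusted p = 0.0413). TLR7 and TLR2 at 72 h differed by -1.01 (SE 0.38, adjusted p = 0.111), with an adjusted p of 0.048 without TLR2 72 h replicate 2, and by -0.084 without the 8 (adjusted p = 0.962). The TLR2 difference at 72 h was 0.79 without the 8.

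The 2 libraries that resembled each other most also matched in these 3 genes. TLR7 24 h replicate 4 and TLR2 72 h replicate 4 had Il21 at 55.9 and 56.8 CPM, Tox2 at 0.876 and 0.951 CPM and Sema7a at 62.6 CPM in both. TLR2 72 h replicate 4 was the highest of its group in all 3 genes. OVA 72 h replicate 1 and TLR7 72 h replicate 3, also close, had Il21 at 6.05 and 7.83 CPM and Maf at 14.7 and 12.8 CPM, values within or near the TLR7 72 h range and above the other OVA 72 h libraries. Whether these libraries carry the right labels was not tested.

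Among the transcription factors, Bcl6 passed the test at 72 h and was lower with the TLR7 agonist. BCL6 is a repressor that directs the Tfh programme and opposes BLIMP-1, encoded by Prdm1. Bcl6 was at 3.28, 6.13, 18.9 and 4.26 CPM in OVA 72 h, at 8.09, 9.11, 9.53 and 10.5 CPM in TLR2 72 h and at 0.949, 1.32, 4.75 and 0.682 CPM in TLR7 72 h. The TLR7 and TLR2 libraries did not overlap, which held for 23.7% of all genes, and TLR7 replicate 3 lay within the OVA range. Bcl6 was lower with TLR7 than with OVA by 2.04 on the log2 scale (log2 fold change -2.04, SE 0.52, adjusted p = 0.033) and than with TLR2 by 2.23 (-2.23, SE 0.53, adjusted p = 0.0254). It was the member called in each of the 2 comparisons, 1 of 6 tested, where 3.62% and 4.8% of all genes were called. The call against OVA was lost when OVA 72 h replicate 2 (adjusted p = 0.0517) or 3 (0.192), or TLR7 72 h replicate 1 (0.142), 2 (0.111) or 4 (0.144), was left out, and without the 8 middle (0.0747) or the 5 shallow libraries (0.53) and in a fit on the 2 groups alone (0.217). Without OVA 72 h replicate 3 the change was -1.20, and without TLR7 72 h replicate 3 it was -3.07 (adjusted p = 0.00221). The call against TLR2 was lost without TLR2 72 h replicate 1 (0.0656), 3 (0.0595) or 4 (0.065), without TLR7 72 h replicate 1 (0.095), 2 (0.0845) or 4 (0.101), without the 8 (0.594) and without the 5 (0.365).

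At 24 h Bcl6 was at 4.33 to 9.37 CPM with OVA, 7.43 to 13.6 CPM with TLR2 and 9.77 to 16.8 CPM with TLR7. The TLR2 to OVA difference was 0.48 (SE 0.49, adjusted p = 0.615). Against OVA, 4 of the 6 members had all TLR7 24 h libraries above all OVA libraries (Il21, Tox2, Bcl6 and Sema7a); over all genes the share that was higher without overlap was 3.61%, and 0.22% were called, but nothing is read from this count because that difference picked the genes. From 24 to 72 h the TLR7 libraries went from 9.77 to 16.8 CPM to 0.682 to 4.75 CPM, without overlap.

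B cells, which can remain after the selection, also express Bcl6, and at 72 h their marker genes were lower with TLR7 as well. The summed level of 20 B cell markers was 163 to 304 CPM in TLR7 72 h, 420 to 922 CPM in OVA 72 h and 311 to 731 CPM in TLR2 72 h, and 5 and 11 of the 20 were called lower with TLR7 than with OVA and TLR2, next to 3.21% and 3.94% of all genes. Over all 24 libraries Cd79a was at 0.211 to 30.9 CPM, and Ms4a1 was at 0 in 3 libraries. At 24 h, in the difference that picked the genes, the B cell sum was 426 to 636 CPM with TLR7 and 585 to 1349 CPM with OVA. Bcl6 was at 9.77 to 16.8 CPM with TLR7 and 4.33 to 9.37 CPM with OVA at that time. The part of B cells in the change of Bcl6 was not tested.

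**Figure D3:**
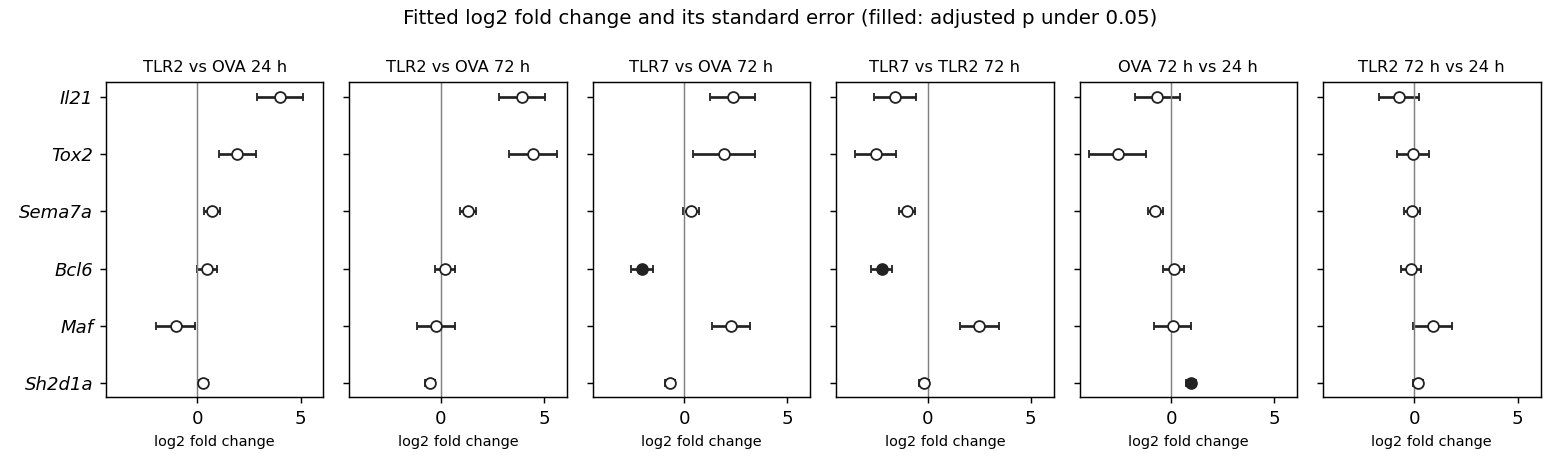
Fitted log2 fold change (horizontal axes) with its standard error (bar) for 6 members in the 6 comparisons tested; filled points have an adjusted p under 0.05. Filled points are Bcl6 in both TLR7 comparisons at 72 h and Sh2d1a in OVA 72 h vs 24 h.

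Maf, a factor that drives Il21 transcription in T cells, had the opposite pattern to Bcl6 at 72 h. It was at 30.5, 23.4, 12.8 and 17.7 CPM in TLR7 72 h and at 1.47, 4.75, 4.25 and 4.36 CPM in TLR2 72 h, with no overlap. In OVA 72 h it was at 14.7, 0.169, 2.41 and 0.279 CPM, so that replicate 1 reached the TLR7 range and the other 3 were far below it. The TLR7 difference was 2.26 against OVA (SE 0.94, adjusted p = 0.188) and 2.51 against TLR2 (SE 0.95, adjusted p = 0.109), neither past the test over all genes. Without OVA 72 h replicate 1 the first was 4.60 (adjusted p = 0.00541), and the second passed in a fit on the 2 groups alone (adjusted p = 0.0061). Without the 8 middle libraries they were 1.88 and 2.18. Non-overlapping libraries were found for 8.7% of all genes in TLR7 vs OVA at 72 h and for 23.7% in TLR7 vs TLR2.

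At 24 h Maf was at 1.23, 0.851, 13.0 and 1.38 CPM with OVA, 1.33, 3.30, 1.18 and 2.25 CPM with TLR2 and 9.12, 8.82, 3.63 and 6.17 CPM with TLR7. The TLR7 libraries were above all TLR2 libraries, and OVA replicate 3 was above them all. The TLR2 difference from OVA was -1.06 (SE 0.95, adjusted p = 0.562), and it changed sign without OVA 24 h replicate 3 (0.77) and without the 8 middle libraries (0.85). The antisense gene Gm15655, which lies opposite Maf on chromosome 8, stayed at 0 to 1.04 CPM.

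Ascl2, a basic helix-loop-helix factor that acts early in Tfh cells, was the member that did not pass the filter on low counts. It had 1 count in each of 3 libraries (TLR2 24 h replicate 3, OVA 72 h replicate 1 and TLR2 72 h replicate 2) and 0 in the other 21. A count of 0 allows a level of up to 3 counts per library, which is 0.110 to 0.286 CPM, and no difference was detectable at this depth.

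Sh2d1a, which encodes the adaptor SAP, was the steadiest of the genes, at 21.7 to 89.4 CPM in all 24 libraries. With OVA it rose from 39.1, 44.1, 27.6 and 21.7 CPM at 24 h to 51.0, 89.4, 65.8 and 55.8 CPM at 72 h, without overlap. The log2 fold change was 0.98 (SE 0.25, adjusted p = 0.0333), in a comparison in which 18.6% of all genes were called and 10.6% did not overlap, so 1 of 6 members is not more than the background share. The call was lost without OVA 24 h replicate 2 (adjusted p = 0.122) or 4 (0.109), without OVA 72 h replicate 1 (0.0549), 2 (0.0955) or 3 (0.0872), without the 5 shallow libraries (0.172) and in a fit on the OVA groups alone (0.171). It held without the 8 middle libraries (1.07, adjusted p = 0.00855). With TLR2 the levels were 34.2, 52.1, 37.6 and 36.4 CPM at 24 h and 38.3, 57.0, 44.4 and 40.6 CPM at 72 h (0.17, SE 0.25, adjusted p = 0.588, and 0.54 without the 8), and 39% of all genes but 0 of the 6 members were called there. With TLR7 they were 29.2, 35.2, 61.4 and 38.9 CPM at 24 h and 32.1, 36.1, 51.3 and 41.0 CPM at 72 h. The difference between the rise with TLR2 and with OVA was -0.81 (SE 0.35, adjusted p = 0.72, and -0.54 without the 8), and in that test 0% of all genes passed (919 at an unadjusted p under 0.05, and 2 with DESeq2). At 72 h Sh2d1a was lower than with OVA by 0.54 with TLR2 (log2 fold change -0.54, SE 0.25, adjusted p = 0.421) and by 0.70 with TLR7 (-0.70, SE 0.25, adjusted p = 0.113), neither past the test.

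Set per kilobase of exons, so that genes can be compared, Il21 (25.1 ± 13.5 CPM per kb, SD, n = 4) and Sema7a (26.8 ± 11.1) had like levels in TLR7 24 h. Sh2d1a (7.48 ± 2.55), Bcl6 (1.89 ± 0.442), Maf (0.842 ± 0.312) and Tox2 (0.547 ± 0.294) were lower there. In TLR7 72 h the order was Sh2d1a (7.29 ± 1.51), Sema7a (4.57 ± 0.827), Maf (2.56 ± 0.923), Il21 (1.56 ± 0.307), Bcl6 (0.288 ± 0.284) and Tox2 (0.0182 ± 0.0211).

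At 72 h the members did not share a direction with TLR7: Bcl6 fell, and Il21 and Maf were higher than with OVA without passing the test. Comparisons with the same OVA or TLR7 libraries share them, so the values of the members are given side by side and no agreement between comparisons is drawn from them. In TLR2 vs OVA at 72 h, 0 of the 6 members and 0% of all genes passed edgeR's test. At an unadjusted p under 0.05 there were 1693 genes. DESeq2 called 82 genes, with Tox2 among them, which passed the filter on low counts only through the TLR7 24 h libraries. The difference of the 2 TLR7 effects, 72 h minus 24 h, which holds the libraries that picked the genes, was -3.35 for Il21 (SE 1.49), -2.81 for Bcl6 (SE 0.72), -1.80 for Sema7a (SE 0.54) and 1.53 for Maf (SE 1.29). Without OVA 72 h replicate 1 it was 0.49 for Il21 and 3.89 for Maf, and without the 8 middle libraries -7.59 and -1.20. Without the 8 it was -3.05 for Bcl6 and -1.89 for Sema7a.

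A list of 30 other Tfh-associated genes, 29 of them tested, was lower with TLR7 at 72 h. Against OVA 11 fell and 1 rose (3.21% of all genes fell), and the median on the log2 scale was -1.14, next to -0.08 over all genes. Against TLR2 7 fell and 0 rose (3.94% of all genes fell), and the median was -0.82, next to -0.03. In both comparisons the largest falls were Pou2af1, a coactivator with octamer-binding factors that is best known from B cells, Tnfsf11, the cytokine RANKL, and one further gene. Pou2af1 was at 0.285, 0.413, 0.224 and 0.341 CPM in TLR7 72 h, at 0.547, 0.887, 8.01 and 32.1 CPM in OVA 72 h and at 36.2, 0.383, 19.97 and 22.0 CPM in TLR2 72 h (-5.04, SE 1.20, adjusted p = 0.0227, and -5.96, SE 1.21, adjusted p = 0.0154). Its lowest TLR2 library, replicate 2, the clear one, was within the TLR7 range, and without the 8 middle libraries 0 genes of the list were called against TLR2. Tnfsf11 was at 0.475 to 6.46 CPM in TLR7 72 h against 6.19 to 52.2 CPM in OVA 72 h (-3.16, SE 0.76, adjusted p = 0.0235) and 6.08 to 38.4 CPM in TLR2 72 h (-3.24, SE 0.76, adjusted p = 0.0254).

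The further gene was Tcf7 against OVA and Tnfsf8 against TLR2. Tcf7, which encodes TCF-1, a factor of Tfh and of memory and stem-like CD8+ T cells, was at 55.4 to 117 CPM in TLR7 72 h against 99.1, 197, 988 and 191 CPM in OVA 72 h (-2.30, SE 0.46, adjusted p = 0.00787). OVA 72 h replicate 3, which held the 988 CPM, also had the highest Bcl6 of the group, Il6ra at 71.4 CPM against 6.14 to 16.1 CPM in the other 3, and Klf2, a factor of resting T cells, at 344 CPM against 7.65 to 12.4 CPM. Tnfsf8, the CD30 ligand, was at 9.87 to 33.5 CPM in TLR7 72 h and 59.8 to 141 CPM in TLR2 72 h (-2.27, SE 0.41, adjusted p = 0.0133). The gene that rose was Icos, the costimulatory receptor on which Tfh cells depend, at 564 to 707 CPM in TLR7 72 h against 467, 197, 119 and 151 CPM in OVA 72 h (1.44, SE 0.38, adjusted p = 0.039), with OVA replicate 1 again the highest of its group. The B cell marker sums at 72 h given above were lower with TLR7, as this list was, and their part in it was not tested.

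The list's counts depended on the same libraries as Bcl6. Without the 8 middle libraries 7 genes were called lower and 0 higher against OVA (median -0.75) and 0 in either direction against TLR2 (median -0.45). Without the 5 shallow libraries the counts were 0 in both comparisons, with medians of -0.995 and -0.72. Leaving out 1 library gave 2 to 15 calls against OVA and 0 to 9 against TLR2, with 0 when TLR2 72 h replicate 1, or TLR7 72 h replicate 1, 2 or 4, was left out of the latter.

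**Figure D4:**
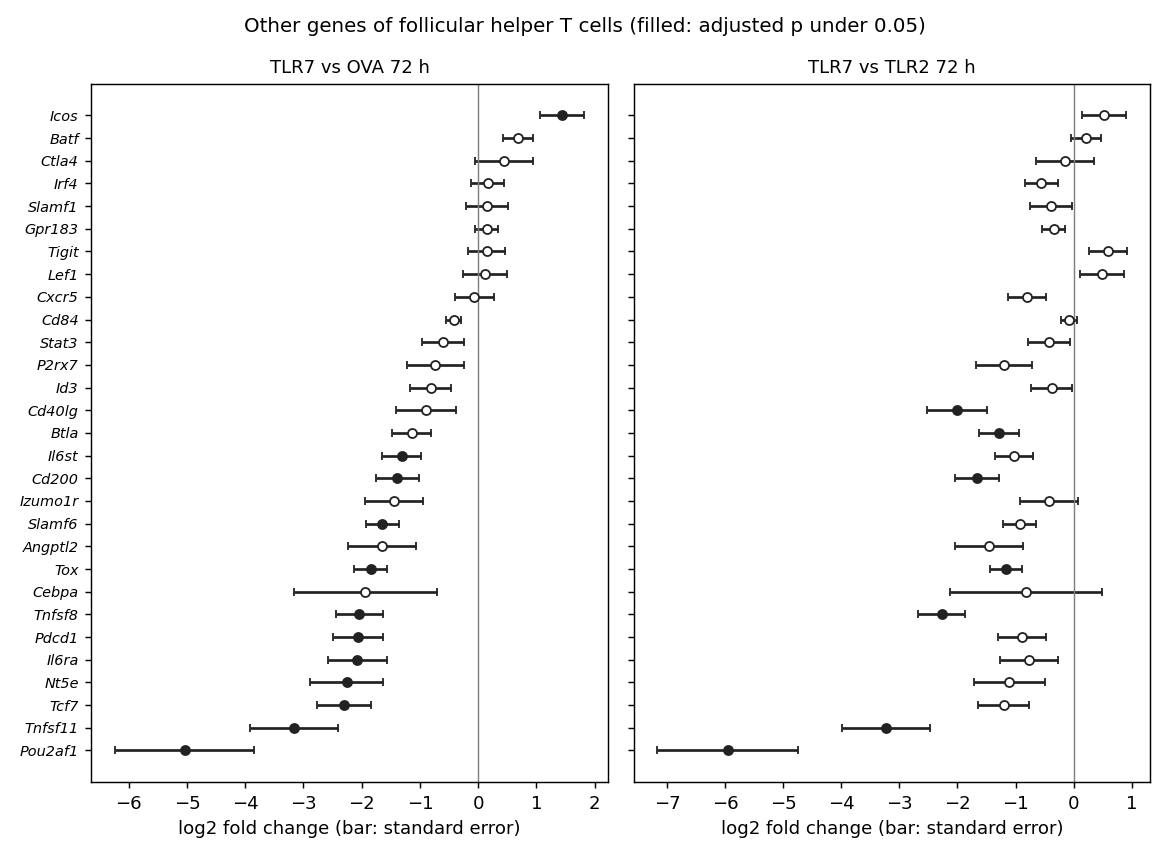
Fitted log2 fold change (horizontal axes, bars are standard errors) of the 29 tested Tfh-associated genes other than the members, for TLR7 vs OVA and TLR7 vs TLR2 at 72 h; filled points have an adjusted p under 0.05. Icos is the filled point to the right of 0, and Pou2af1 lies furthest to the left in both panels.

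At 24 h, in TLR7 vs OVA, the list's median was 0.04 and 0 of its 29 tested genes were called. Since 0.22% of all genes were called there, in the difference that picked the members, nothing is read from this count. CXCR5, the receptor that takes Tfh cells to the follicle, had its lowest level at 24 h with TLR7. Cxcr5, named after its values were seen, was at 4.39, 5.34, 2.42 and 4.92 CPM in TLR7 24 h against 9.09, 15.9, 7.26 and 11.9 CPM in OVA 24 h and 8.90, 14.1, 10.9 and 10.4 CPM in TLR2 24 h, without overlap. Over time Cxcr5 fell with OVA to 2.70 to 4.96 CPM at 72 h (-1.49, SE 0.33, adjusted p = 0.0333). In OVA 72 h vs 24 h 6 of the 29 were called, a share near the 18.6% of all genes, with Nt5e (1.90), Stat3 (1.14) and Tigit (0.99) higher and Cxcr5, Slamf1 (-1.28) and Irf4 (-0.83) lower. In TLR2 72 h vs 24 h, 4 rose, with Ctla4 (1.65), Tigit (1.32) and Lef1 (1.27) the largest, and 2 fell (Cd200, -1.08, and Btla, -0.87), where 39% of all genes were called. Without 1 library the counts ranged from 0 to 14 with OVA and from 1 to 6 with TLR2.

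All 16 genes of a list that oppose the Tfh programme were tested. At 72 h Il2ra, a chain of the IL-2 receptor, was higher with TLR7 than with OVA (1.06, SE 0.28, adjusted p = 0.038). Ccr7, the receptor for homing to T cell zones, was lower (-1.05, SE 0.21, adjusted p = 0.0087), where 3.62% of all genes were called. Against TLR2 at 72 h, Ccr7 (-0.92) and Stat5a (-0.91) were lower and 0 higher, where 4.8% of all genes were called. No call in either comparison remained without the 5 shallow libraries. Without 1 library 0 to 4 and 0 to 3 were called. Over time 5 rose and 2 fell with OVA, where 18.6% of all genes were called, led by Klf2 (3.71, with the 344 CPM of replicate 3) and S1pr1 (2.92), and 7 rose and 0 fell with TLR2, where 39% were called, led by Il7r (2.99), Prdm1 (2.87) and Selplg (2.19). Prdm1 was at 2.93 to 7.44 CPM in TLR2 24 h and 22.7 to 64.2 CPM in TLR2 72 h. Without the 8 middle libraries 11 rose and 2 fell with OVA and 9 rose and 3 fell with TLR2, and without the 5 shallow ones the counts were 0 with OVA and 6 rises with TLR2. Without 1 library 0 to 8 were called with OVA and 5 to 9 with TLR2.

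The receptor for IL-21 was present in every group. Il21r stood at 110 to 161 CPM in OVA 24 h, 126 to 145 CPM in TLR2 24 h, 144 to 181 CPM in TLR7 24 h and 174 to 231 CPM in TLR7 72 h, against 116 to 183 CPM in OVA 72 h and 136 to 169 CPM in TLR2 72 h. Of the 12 genes of the receptor and its signalling, 1 was called higher with TLR7 than with OVA at 72 h (Cish, a feedback inhibitor of STAT5 signalling, 1.13, SE 0.27, adjusted p = 0.0238) and 1 lower, where 3.62% of all genes were called. Against TLR2 only Stat5a was called (-0.91), where 4.8% of all genes were. Without 1 library these counts of 2 and 1 ranged from 0 to 6 and from 0 to 2.

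Of 25 factors known to act on Il21, 6 were called lower with TLR7 than with OVA at 72 h and 0 higher (median -0.51, next to 3.21% of all genes called lower). The largest falls were Il6ra, the IL-6 receptor (-2.07, SE 0.51, adjusted p = 0.0265), Eomes, a T-box factor (-1.40, SE 0.36, adjusted p = 0.0331), and Il6st, the shared IL-6 receptor chain (-1.31, SE 0.33, adjusted p = 0.0308). Against TLR2 3 were lower, next to 3.94% of all genes: Egr2 (-2.58), Eomes (-1.51) and Nr4a1 (-1.04), which the T cell receptor induces or, for Eomes, which shapes effector CD8+ T cells. Without the 8 middle libraries the counts were 2 and 0, without the 5 shallow ones 0 and 0, and without 1 library 0 to 12 and 0 to 6. Il6ra includes the 71.4 CPM of OVA 72 h replicate 3, given above.

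The other common gamma-chain cytokine genes were fixed as a list of 5, of which Il2 alone passed the filter. Il2 was high with TLR7 at 24 h, at 219, 224, 98.3 and 107 CPM, and nearly absent at 72 h, at 0.207, 0.0893, 0.344 and 0.166 CPM. In TLR2 72 h it was at 17.2, 0.213, 45.7 and 112 CPM, and the called difference of TLR7 from TLR2 (-7.67, SE 1.81, adjusted p = 0.0254) comes with replicates 1, 3 and 4 of TLR2, the libraries between the times. The clear TLR2 library lay within the TLR7 range. Of the 9 tested SLAM family and SAP-related genes, 2 were called lower with TLR7 than with OVA at 72 h, where 3.21% of all genes were. They were Slamf6, a receptor for SAP (-1.65, SE 0.28, adjusted p = 0.00389), and Fyn, the kinase SAP recruits (-0.80, SE 0.17, adjusted p = 0.0122). Sh2d1a itself was not called. Like all calls in this comparison, these were lost without the 5 shallow libraries.

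The genes whose pattern over the 24 libraries was most like that of Il21 were ranked by a distance. It was measured as the root mean square difference in log2 CPM after removal of each gene's own mean, among 10635 genes with a mean of at least 1 CPM. Among the 8 nearest were Il1r1 (1.91), the IL-1 receptor, Saa3 (2.02), an acute-phase protein, Il23r (2.14), the IL-23 receptor, Lum (2.15), a matrix proteoglycan, Ifng (2.21), the cytokine interferon-gamma, Sox5 (2.27) and F3 (2.30), tissue factor. These values are large, since Il21 itself deviated from its own mean by 3.11 and the median over all tested genes was 3.17. The points share libraries and depth, and the 8 middle libraries are among them. Il1r1 was at 0.433 ± 0.0765 CPM in OVA 24 h, 3.07 ± 1.92 CPM in TLR2 24 h and 2.71 ± 1.57 CPM in TLR7 24 h (SD, n = 4 each), so unlike Il21 it was about as high with TLR2 as with TLR7. Ifng was at 102 ± 64.7, 401 ± 157 and 365 ± 193 CPM in the same groups.

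**Figure D5:**
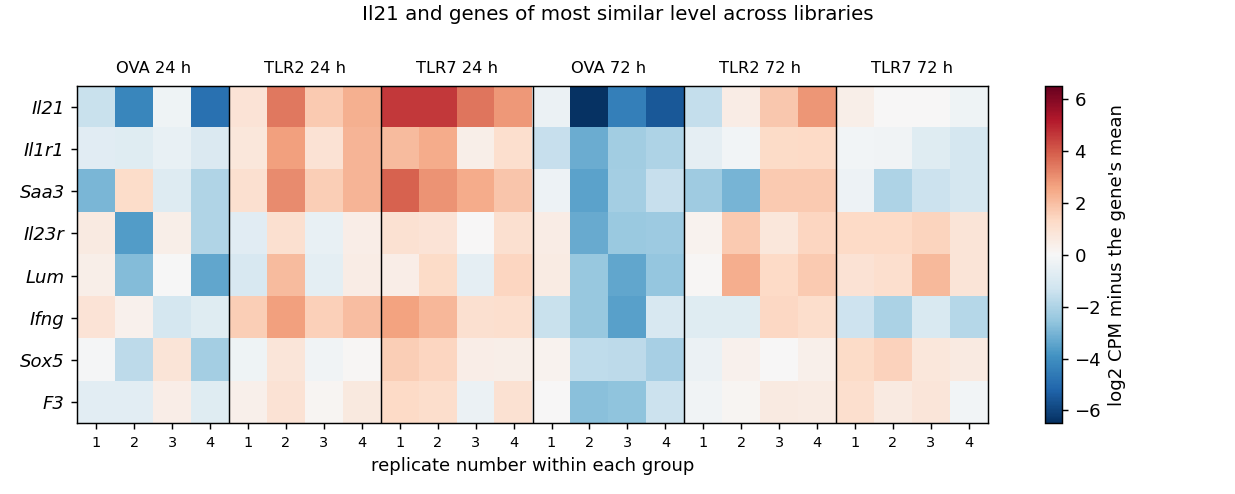
Log2 CPM minus each gene's mean over the 24 libraries (colour scale) for Il21 and 7 of the 8 genes most like it, by group and replicate number. OVA 72 h replicates 2 to 4 are mostly blue and replicate 1 is paler, and the TLR7 24 h columns are mostly red.

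Of the other members, Tox2 had a difference from Il21 of 2.10, rank 8 of the 14559 tested genes, but its mean was under 1 CPM, so it was not a candidate above. Sema7a ranked 26 (2.44), Maf 50 (2.60), Bcl6 5066 (3.10) and Sh2d1a 9737 (3.26). Since Tox2 was picked for the same rise as Il21, its rank is a description of that choice.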

How the data were processed

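RNA-seq libraries of 6 groups of 4 were analysed, from a stranded poly-A kit per the labels' protocols. The deposited values are expected counts per gene: 28.7% of the values above 0 are not whole. The submitters' processing notes name STAR, RSEM, edgeR and GRCm38 without versions or roles, and the sources used here give no strand setting for the counting. The expected counts were rounded, scaled by TMM and fitted in edgeR 4.0.16 (R 4.3.3, limma 3.58.1) with 1 quasi-likelihood model over the 24 libraries and 6 groups, with 18 residual degrees of freedom. The filter (minimum count 10, minimum total 15) kept 14560 of 48526 genes and 6 of the 7 members. Tox2 passed it only through the TLR7 24 h libraries, which picked the members. P-values were adjusted by Benjamini-Hochberg over all genes tested, with a threshold of 0.05. CPM are counts scaled to 1000000 per TMM-adjusted library, and log2 CPM use a prior count of 2. Tox2 count ratios carry exact 95% intervals for counting error only, and floors of 3 counts likewise. Positions are of GENCODE M21. The fit was tested on simulated data.

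The members, gene lists and tests were chosen with earlier results of these data known. Differences that hold the TLR7 24 h libraries picked the members and carry no p; comparisons with the OVA 24 h libraries share those libraries with that choice. Besides the members, the genes named are up to 3 called genes per list, comparison and direction with the largest change, and the 8 most like Il21; exceptions are said. Some genes that these rules name are not reported here. Alternatives were RLE scaling, no scaling, no low-count filter, a replicate block, a fit on the groups compared only, DESeq2 1.42.0 and leaving out each library, and, chosen after seeing the data, leaving out the 8 libraries between the times or the 5 shallow ones.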

Additional observations from a re-analysis of the deposited data

Results flagged for a closer look

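In 7 of 36 groups of 4 libraries, the highest or lowest library of a member stood apart from the other 3 by more than Dixon's 95% critical value. That value is made for normally spread values, whereas CPM are bounded at 0, and members share libraries. The number of groups flagged is therefore not compared with chance. Il21 was at 6.05 CPM in OVA 72 h replicate 1, with the next library at 0.273 CPM. In the same library Maf was at 14.7 CPM, with the next at 2.41 CPM. Tox2 was at 0.0455 CPM in OVA 72 h replicate 3, which is 1 count, and at 0 in the other 3, a pattern flagged at any level. Bcl6 was at 4.75 CPM in TLR7 72 h replicate 3, with the next at 1.32 CPM. Maf was at 13.0 CPM in OVA 24 h replicate 3, with the next at 1.38 CPM, and at 1.47 CPM in TLR2 72 h replicate 1, below the next at 4.25 CPM. Sema7a was at 62.6 CPM in TLR2 72 h replicate 4, with the next at 24.0 CPM. Replicate 3 of OVA 24 h and replicates 1 and 4 of TLR2 72 h are among the 8 libraries between the times, and the other 3 libraries named are not.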

How the results depend on the processing

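Of 1144 alternatives over 66 single values, 1054 were counted as the same. For tested values this means the same direction and side of the threshold. For values with no test it means a shift smaller than the spread between replicates, whatever the sign. Among tested values 23 lost a call, 10 gained one and 43 changed sign, and 14 values with no test moved by more than that spread. Some values near 0 with no test, such as Sh2d1a in TLR7 vs TLR2 at 24 h, changed sign within it. The count of members called in OVA 72 h vs 24 h, 1, became 0 in a fit on the groups compared only, 2 without the 8 libraries between the times, 0 without the 5 shallow ones and 0 to 2 without 1 library. In TLR7 vs OVA at 72 h, 1 became 0 under each of these 3 and 0 to 3 without 1 library. In TLR7 vs TLR2 at 72 h it became 2, 0 and 0, and 0 to 2. With DESeq2, 1 member each was called in TLR2 vs OVA at 24 h and at 72 h, and without 1 library 0 to 1 in the latter. For Il21, TLR7 over OVA at 24 h was 9.53 without the 8, and the difference of the TLR7 effects -7.59 without the 8 and -4.40 to 0.49 without 1 library. The labels do not say whether equal replicate numbers pair the libraries, and the main fit assumed no pairing. Of 60 same-number pairs 21 correlated above 0.1, and 10 of 24 libraries correlated best with their own number. Pairs of different numbers were not counted in the same way, so this check cannot decide on pairing. With the replicate block, the sign turned for OVA 72 h vs 24 h in Bcl6 (-0.15) and Maf (-0.21), for Tox2 in TLR2 72 h vs 24 h (0.013), for Maf in TLR2 vs OVA at 72 h (0.26) and for the difference of the TLR2 effects in Il21 (0.21) and Bcl6 (0.0026), none past the test in either fit. The block changed no other tested direction or call of a member, but 5 in place of 12 Tfh-associated genes were called in TLR7 vs OVA at 72 h. It also turned without scaling in Tox2, TLR2 72 h vs 24 h (0.043), and Il21, TLR2 effects (0.057). Without the 8 it turned for Il21 in OVA 72 h vs 24 h (3.02), Maf (0.85) in TLR2 vs OVA at 24 h, Tox2 in TLR7 vs TLR2 at 72 h (0.56) and the TLR2 effects in Maf (-1.15) and Tox2 (-0.95), and without the 5 for Maf in OVA 72 h vs 24 h (-0.20), Sh2d1a in TLR7 vs TLR2 at 72 h (0.034) and Il21, TLR2 effects (0.21). The cause was not tested.

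Without 1 library, values that turned sign in OVA 72 h vs 24 h ranged from -0.71 to 0.28 (Bcl6), -4.52 to 0.38 (Il21) and -2.29 to 1.91 (Maf). In TLR2 72 h vs 24 h they ranged from -0.26 to 0.0028 (Bcl6), -0.77 to 0.081 (Sema7a) and -1.27 to 0.58 (Tox2). In the difference of the TLR2 effects the ranges were -0.41 to 0.55 (Bcl6), -1.10 to 3.79 (Il21), -1.01 to 3.20 (Maf) and -0.011 to 1.06 (Sema7a). For Maf, TLR2 vs OVA ranged from -1.47 to 0.77 at 24 h and from -0.64 to 2.08 at 72 h, and the TLR7 effects from -0.31 to 3.89. Over all genes, calls in TLR7 vs OVA at 72 h went from 527 to 29 on the groups only, 934 with DESeq2, 258 without the 8, 0 without the 5 and 92 to 1370 without 1 library. In TLR7 vs TLR2 at 72 h they went from 699 to 3302, 1512, 0, 0 and 0 to 1667. In OVA 72 h vs 24 h, 2709 became 1129 without the filter, 0 on the groups only, 7673 without the 8, 0 without the 5 and 0 to 4709 without 1 library. In TLR2 72 h vs 24 h, 5681 became 2847 without the 5 and 1371 to 5200 without 1 library. In TLR7 vs OVA at 24 h, 32 became 15 with the block, 0 on the groups only, 246 with DESeq2, 398 without the 8, 0 without the 5 and 0 to 146 without 1 library. In TLR2 vs OVA, 0 became 1 with the block and 4 on the groups only at 72 h, and up to 546 at 24 h and up to 555 at 72 h without 1 library. Median shifts over 0.1 from another scaling occurred in TLR2 72 h vs 24 h without scaling (0.104). A fit on the groups compared only gave no value where the filter dropped Tox2 or Il21. Depth limits Ascl2 and Tox2 most.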
